A study of Homo sapiens with 8 samples.

Results

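HT29 multicellular spheroids (MCS) were compared with DLD1 MCS for their miRNA content, and the same comparison in monolayer (2D) culture was used to see which line differences appeared, widened, narrowed or vanished in MCS. HT29 and DLD1 are established human colorectal adenocarcinoma cell lines. The compared miRNAs were the 395 of 1780 human mature miRNA entries that averaged 10 or more CPM (counts scaled to the library total) over the 2 MCS libraries of either line. Of these, 248 reached that level in both lines, 59 in HT29 alone and 88 in DLD1 alone. Small RNA libraries had been made at day 6 from 4 groups of 2 replicates each, 8 libraries in all. DLD1 monolayers started from 35000 cells and HT29 monolayers from 100000, whereas each DLD1 spheroid well received 7000 cells and each HT29 well 3500 on a non-adherent surface. No group carried a drug, transgene or deletion. DLD1 cells grew in RPMI and their libraries came from version V3 of the NEXTflex small RNA kit, whereas HT29 cells grew in DMEM and their libraries came from version V2. Line, medium, kit and seeding number therefore cannot be told apart in any difference between HT29 and DLD1. A fold offset that a kit gives 1 miRNA alike in both cultures cancels, by construction, in the change of the difference between MCS and 2D. Seeding need not cancel there, since HT29 was seeded above DLD1 in 2D and below it in MCS. Its effect was not tested.

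A miRNA is cut from a hairpin precursor whose 5p and 3p arms each can give a mature strand, and the strand loaded into an Argonaute protein guides repression of mRNAs. Pairing runs mainly through the seed, bases 2 to 8 of the mature strand, so miRNAs from different genes that share a seed are expected to recognise overlapping sets of mRNAs. In colonic epithelium the miR-192, miR-194 and miR-215 group and the miR-200 family are well known markers of the epithelial state. Such families are often encoded by several loci, and a pair of cell lines can fill 1 seed family from different loci.

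The mature sequences of the miRNAs on which the results below turn are shown with the seed in capitals. They were read from RefSeq (GRCh38.p14), in which 348 of the 395 miRNAs (88.1%) were matched by name. The first 8 are 4 pairs of seed relatives that differed between the lines in opposite or like directions. The next 4 had an unadjusted edgeR p under 0.05 for the change of the line difference. The last had the largest difference towards DLD1 among miRNAs with 10 CPM in both lines.
hsa-miR-99b-5p: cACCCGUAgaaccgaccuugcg
hsa-miR-100-5p: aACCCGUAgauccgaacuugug
hsa-miR-125a-5p: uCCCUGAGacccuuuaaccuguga
hsa-miR-125b-5p: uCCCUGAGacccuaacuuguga
hsa-let-7e-5p: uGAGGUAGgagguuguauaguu
hsa-let-7b-5p: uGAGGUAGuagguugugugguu
hsa-miR-192-5p: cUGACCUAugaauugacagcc
hsa-miR-215-5p: aUGACCUAugaauugacagac
hsa-miR-30a-5p: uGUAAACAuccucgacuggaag
hsa-miR-552-3p: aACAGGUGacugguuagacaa
hsa-miR-455-5p: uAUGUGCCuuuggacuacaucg
hsa-miR-23b-3p: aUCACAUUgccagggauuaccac
hsa-miR-148a-3p: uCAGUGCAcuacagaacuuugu
Written from the first to the second miRNA and counted from 1 at the 5′ end, miR-99b-5p differed from miR-100-5p by C1A, A11U, C16A and C21U, and miR-192-5p from miR-215-5p by C1A and C20A. let-7e-5p differed from let-7a-5p by G9U alone. How reads that match several mature sequences were counted is not stated in the sources used here, so close relatives of this kind, also miR-27a-3p with miR-27b-3p and miR-320b with miR-320c and miR-320d, are uncertain where such reads were split.

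The libraries held between 10495634 and 26211524 miRNA counts, and those of the MCS between 10745232 and 20463716. Replicates of HT29 stood further apart than those of DLD1. The median difference between replicates on the log2 scale was 0.63 in HT29 MCS and 0.60 in HT29 2D, against 0.24 in DLD1 MCS and 0.21 in DLD1 2D. In both HT29 cultures, replicate 1 gave a larger share of its counts to its 10 most abundant miRNAs (80.8% in MCS and 85.9% in 2D) than replicate 2 (63.9% and 68.0%), while the DLD1 libraries gave 62.9% to 67.4%. Levels are therefore given as normalised CPM, the count over the library total multiplied by an upper quartile factor, and their sum differs between libraries. The factor was 0.570 and 1.23 in the HT29 MCS libraries and 1.29 and 1.03 in those of DLD1. In 2D it was 0.397 and 1.25 in the HT29 libraries and 1.47 in both of DLD1. Nothing in the labels says that replicates were separate cultures, so p-values measure only the spread between these samples, which may be technical. In bulk RNA, fewer cells with a miRNA and less of it per cell cannot be told apart. Where leaving out 1 library ended the call of a miRNA described with its own value, or moved its called fold change by over 1.5 times, the value without that library is given in the same paragraph. For family counts the range over the 8 fits with 1 library left out is given for some families only. Counts without a range can move too, among them those of the miR-320 family and the colorectal cancer list.

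In MCS, 238 of the 395 miRNAs (60.3%) differed between the lines at an edgeR quasi-likelihood Benjamini-Hochberg adjusted p under 0.05 and a fold change of at least 1.5, here termed called. HT29 had the higher level for 114 (28.9%) and the lower level for 124 (31.4%). Since the 147 miRNAs that reached 10 CPM in 1 line alone entered through the line in which they were high, their calls are no separate support. Among the 248 miRNAs that reached 10 CPM in both lines, 112 (45.2%) were called, 60 higher and 52 lower in HT29. The difference was at least 4-fold for 163 of the called miRNAs and at least 16-fold for 62. Both HT29 libraries lay outside the range of both DLD1 libraries for 326 of the 395 miRNAs (82.5%). The direction of these calls did not depend on the scaling, since none of the 238 changed sign with TMM, RLE, library totals alone or upper quartile factors over the tested miRNAs, and 146 were called with all 4 (55 higher and 91 lower in HT29). The number of calls did, with 159 under library totals alone, of which 55 were higher and 104 lower in HT29. Calls described below that were lost under library totals alone include those of miR-194-5p, miR-200a-3p, miR-429, miR-15b-5p, miR-29a-3p, miR-30b-5p and miR-30e-5p. The median log2 difference of all 395 was −0.35, and it moved by 0.34 with TMM, 0.26 with RLE and −0.37 with library totals alone, so that a small difference should be read against this shift.

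Of the 8 most abundant miRNAs in MCS, 3 belonged to the miR-200 family and the miR-192 group. The highest mean level in MCS belonged to miR-10a-5p, encoded between HOX genes, with 146245 and 184224 normalised CPM in DLD1 and 676117 and 53313 in HT29. The HT29 replicates lay on either side of DLD1, and the difference (log2 1.14 ± 1.29 SE, adjusted p = 0.461) was not called. miR-21-5p, often raised in colorectal tumours, gave 93421 and 146131 in DLD1 and 357456 and 194538 in HT29. Its log2 difference of 1.20 ± 0.52 was not called either (edgeR adjusted p = 0.0757), although it was called without HT29 2D replicate 1 (adjusted p = 0.0423). miR-200b-3p and miR-200c-3p, which repress the transcripts of the epithelial-mesenchymal regulators ZEB1 and ZEB2, were both abundant but did not differ alike. miR-200c-3p was lower in HT29, at 21985 and 16375 against 73238 and 89538 normalised CPM in DLD1 (log2 −2.09 ± 0.44, adjusted p = 0.00459). miR-200b-3p gave 64307 and 90266 in HT29 and 48172 and 61394 in DLD1 and was not called (log2 0.50 ± 0.36, adjusted p = 0.264). miR-26a-5p, an inhibitor of growth in several tissues, was lower in HT29, with 10925 and 7762 against 30713 and 40649 (log2 −1.93 ± 0.41, adjusted p = 0.00502). let-7a-5p and miR-30d-5p were not called in MCS over all libraries (adjusted p = 0.149 and 0.307), but let-7a-5p passed without HT29 2D replicate 1 (log2 −1.44, adjusted p = 0.0423) or replicate 2 (log2 −1.54, adjusted p = 0.0283).

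Among miRNAs with at least 10 CPM in both lines, the largest difference was in miR-99b-5p, which was 7.64 ± 1.14 higher in HT29 on the log2 scale (edgeR adjusted p = 0.00107). Its levels were 144 and 186 normalised CPM in the DLD1 MCS and 48640 and 16987 in the HT29 MCS. Without HT29 MCS replicate 1 the log2 difference was 6.71, so the size but not the call rested on that library. miR-577 stood next, with 11.6 and 17.2 in DLD1 and 890 and 927 in HT29 (log2 5.98 ± 0.53, adjusted p = 0.000166). miR-7-5p, known to restrain EGF receptor signalling, had 326 and 464 in DLD1 and 14948 and 7611 in HT29 (log2 4.84 ± 0.55, adjusted p = 0.00029). In all 3 the groups were far from overlapping. The other 5 of the 8 highest were let-7e-5p, miR-125a-5p, miR-99b-3p, miR-192-5p and miR-215-5p, described with their relatives below.

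In the opposite direction, miR-148a-3p gave 7473 and 9514 normalised CPM in the DLD1 MCS and 174 and 40.6 in the HT29 MCS. The log2 difference was −6.31 ± 0.97 (edgeR adjusted p = 0.00124), −7.68 without HT29 MCS replicate 1 and −5.63 without replicate 2. miR-148a-3p represses the DNA methyltransferase DNMT1, and its hairpin lies on the minus strand at chr7:25989539-25989606 (GRCh37). miR-425-5p had 10250 and 15857 in DLD1 and 243 and 408 in HT29 (log2 −5.33 ± 0.49, adjusted p = 0.00019). Next were miR-130b-5p (log2 −3.66 ± 0.39), miR-3615 (−3.61 ± 0.36), miR-1301-3p (−3.42 ± 0.43), miR-1180-3p (−2.86 ± 0.34) and miR-361-3p (−2.85 ± 0.37). None of these 5 exceeded 45.2 normalised CPM in an HT29 MCS library, and none fell under 125 in a DLD1 MCS library. miR-29a-3p, which represses collagen and other matrix transcripts, was also among the 8 lowest at 987 and 3290 against 16316 and 15785 (log2 −2.91 ± 0.64, adjusted p = 0.00592). Its HT29 replicates stood apart, and the log2 difference was −4.04 without HT29 MCS replicate 2 and −2.26 without replicate 1.

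**Figure D1:**
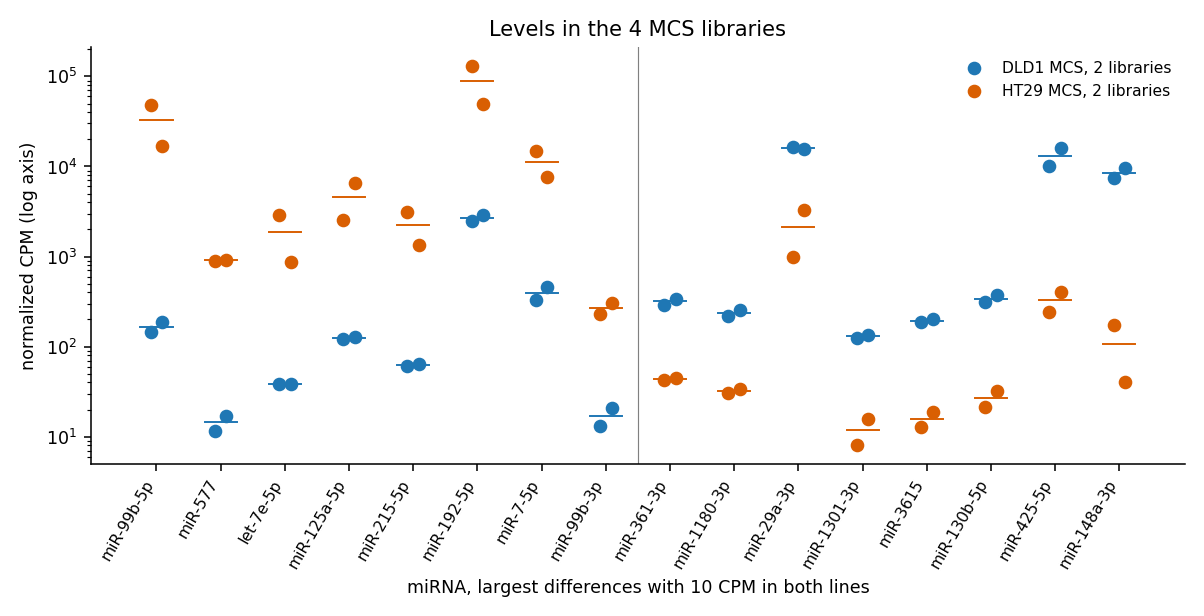
Normalised CPM on a log axis in the 4 MCS libraries for the 8 miRNAs with the highest and the 8 with the lowest log2 difference, HT29 over DLD1, among those called with 10 CPM in both lines. Points are libraries and bars are group means. miR-99b-5p has 144 and 186 in DLD1 against 48640 and 16987 in HT29, and miR-148a-3p 7473 and 9514 against 174 and 40.6.

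Several miRNAs were at or near 0 counts in 1 line, so that their fold is given from counts and covers counting error only. miR-150-5p, a miRNA of lymphocytes, had 0 counts in all 4 DLD1 libraries and 67.1 and 51.6 normalised CPM in the HT29 MCS. With a floor of 3 counts over the group, it was at least 814-fold higher in HT29 MCS and at least 199-fold higher in HT29 2D. miR-598-3p had 1 count in the DLD1 MCS, against 87.0 and 112 normalised CPM in HT29, a ratio of 4730 (95% interval 848 to 187000). miR-3144-3p had 2 counts in DLD1 MCS and a ratio of 428 (118 to 3540). At this depth these 3 miRNAs were at or near the limit of detection in the DLD1 MCS. In DLD1 alone, miR-371b-3p and miR-372-3p, of the chromosome 19 cluster known from embryonic stem cells, gave 21.3 and 27.7 and 20.0 and 27.1 normalised CPM in MCS. miR-371b-3p had no count in HT29 MCS and was at least 222-fold lower there, and miR-372-3p had 1 count, a ratio of DLD1 to HT29 of 638 (114 to 25200). miR-9-3p, a strand of the neural miR-9 hairpins, had 1 count in HT29 MCS and a ratio of 2990 (536 to 118000). miR-3660 and miR-10b-3p, with ratios of 339 (60.7 to 13400) and 262 (72.3 to 2170), completed the 5 lowest of those with 10 CPM in 1 line.

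The broadest block of differences lay in 3 neighbouring hairpins on chromosome 19. MIR99B (chr19:52195865-52195934), MIRLET7E (chr19:52196039-52196117) and MIR125A (chr19:52196507-52196592, all GRCh37, plus strand) lie within the SPACA6 gene, MIR99B in an intron and MIR125A in an annotated exon. All 6 tested strands of these hairpins were higher in HT29, with a median log2 difference of 5.39 in MCS and 5.29 in 2D. Of these, at least miR-125a-3p entered the test through HT29 alone, so its direction is no separate support. let-7e-5p gave 38.7 and 38.6 normalised CPM in the DLD1 MCS and 2856 and 866 in the HT29 MCS. Its log2 difference of 5.59 ± 0.89 (edgeR adjusted p = 0.00141) became 4.51 without HT29 MCS replicate 1 and 6.19 without replicate 2. miR-125a-5p gave 120 and 127 in DLD1 and 2561 and 6491 in HT29 (log2 5.19 ± 0.54, adjusted p = 0.00025, or 4.36 without HT29 MCS replicate 2). The passenger strands miR-99b-3p (13.3 and 21 against 229 and 306, log2 3.96 ± 0.42) and miR-125a-3p (0.258 and 0.379 against 38.5 and 55.7) differed in the same direction.

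For each of the 3 guide strands of this block, a seed relative encoded elsewhere had the opposite difference. Of these relatives, miR-100-5p and miR-125b-5p entered the test through DLD1 alone, so their direction is no separate support. miR-100-5p, from an intron of MIR100HG (MIR100, chr11:122022937-122023016, minus strand), had 550 and 611 normalised CPM in the DLD1 MCS and 18.9 and 5.57 in the HT29 MCS (log2 −5.59 ± 1.12, edgeR adjusted p = 0.00377). This was −6.67 without HT29 MCS replicate 1 and −4.95 without replicate 2. miR-125b-5p, from MIR125B1 (chr11:121970465-121970552, minus strand) and MIR125B2 (chr21:17962557-17962645, plus strand), had 84.0 and 77.4 in DLD1 and 4.90 and 4.53 in HT29 (log2 −4.10 ± 0.34, adjusted p = 0.000138). let-7b-5p had 13149 and 12146 in DLD1 and 3381 and 2581 in HT29 (log2 −2.09 ± 0.39, adjusted p = 0.00293). It was not typical of its seed, since of the 9 tested strands with the let-7 seed 1 (let-7e-5p) was higher, 2 were lower and 6 were not called. Summed over the seed, miR-99b-5p and miR-100-5p together were 44.0-fold higher in HT29 MCS, and miR-125a-5p and miR-125b-5p 22.2-fold higher, while the 9 let-7 strands with the shared seed were 2.09-fold higher in DLD1. The DLD1 MCS thus held the ACCCGUA seed mostly as miR-100-5p, and the HT29 MCS almost wholly as miR-99b-5p.

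Both members of the UGACCUA seed were higher in HT29. miR-192-5p, a marker of intestinal epithelium transcribed with miR-194-2 (MIR192, chr11:64658609-64658718, minus strand), gave 2454 and 2865 normalised CPM in the DLD1 MCS and 129542 and 49243 in the HT29 MCS. Its log2 difference was 5.07 ± 0.65 (edgeR adjusted p = 0.000545), or 4.24 without HT29 MCS replicate 1. miR-215-5p (MIR215, chr1:220291195-220291304, minus strand) gave 61.1 and 64.9 in DLD1 and 3120 and 1339 in HT29 (log2 5.14 ± 0.49, adjusted p = 0.000204, or 4.44 without HT29 MCS replicate 1). The summed seed was 33.7-fold higher in HT29 MCS, mainly as miR-192-5p by level. miR-194-5p, which is processed from both transcripts, gave 4287 and 4914 in DLD1 and 13830 and 34491 in HT29 (log2 2.39 ± 0.48, adjusted p = 0.00395, or 1.57 without HT29 MCS replicate 2).

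**Figure D2:**
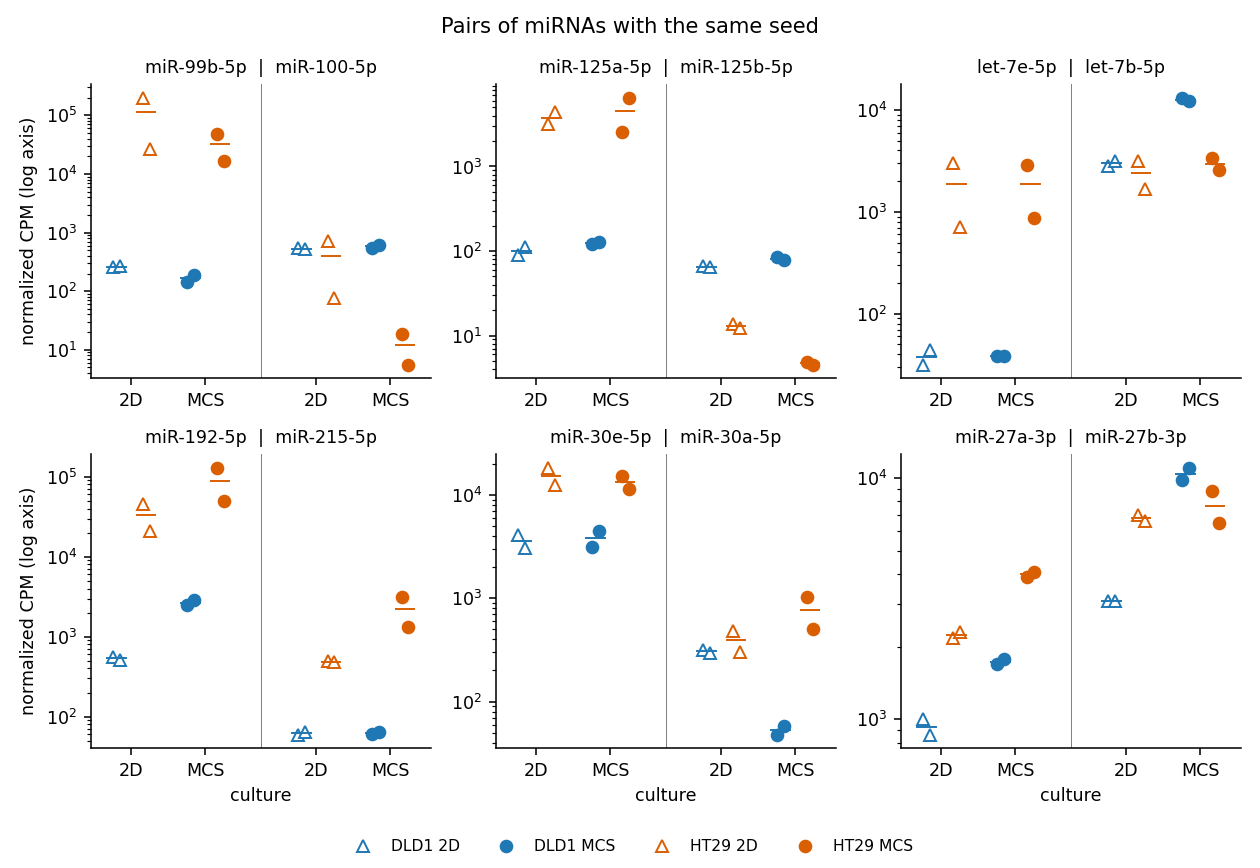
Normalised CPM on a log axis of 6 pairs of seed relatives in DLD1 and HT29. Triangles are 2D libraries, circles are MCS libraries and bars are group means. In MCS miR-99b-5p, miR-125a-5p and let-7e-5p lie above DLD1 in HT29 while miR-100-5p, miR-125b-5p and let-7b-5p lie below, whereas miR-192-5p and miR-215-5p both lie above.

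Of 34 seeds shared by 2 or more tested miRNAs (94 miRNAs), 5 had called members in both directions in MCS. Apart from the seeds above, summed levels were higher in HT29 for miR-19a-3p and miR-19b-3p (GUGCAAA, 5.08-fold) and for miR-141-3p and miR-200a-3p (AACACUG, 4.0-fold). They were higher in DLD1 for the miR-29 strands (AGCACCA, 6.94-fold), miR-148a-3p, miR-148b-3p and miR-152-3p (CAGUGCA, 3.96-fold), miR-26a-5p and miR-26b-5p (UCAAGUA, 3.89-fold) and miR-23a-3p and miR-23b-3p (UCACAUU, 3.49-fold). The AAUACUG seed of miR-200b-3p, miR-200c-3p and miR-429 stood at 0.760 of its DLD1 sum in HT29. These sums carry no test of their own and follow their most abundant member. They hold only miRNAs with a matched sequence, and none is given for the miR-30 seed, since miR-30b-5p and miR-30d-5p were not matched.

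Among the epithelial families, the miR-200 family (9 strands tested) had 3 strands higher and 3 lower in HT29 MCS. These and the following family counts stand beside 28.9% higher and 31.4% lower of all 395. In every family, strands with 10 CPM in 1 line alone entered through that line, so their direction is no separate support. The strands with 10 CPM in both lines were 2 of 4 for miR-26 and 5 of 9 for the miR-15 and miR-16 list. They were 3 of 5 for miR-148 and miR-152, 5 of 7 for miR-29 and 6 of 8 for miR-181. For miR-30 they were 6 of 9, and for the colorectal cancer list 9 of 12. Under library totals alone the miR-200 family had 0 strands higher and 2 lower, and with 1 library left out 2 to 3 in each direction. The lower strand miR-200b-5p lost its call without DLD1 2D replicate 2, DLD1 MCS replicate 1 or 2 or HT29 MCS replicate 1 or 2 (edgeR adjusted p = 0.0569, 0.0725, 0.123, 0.0761 and 0.0568). miR-200a-3p was higher, at 16014 and 19226 against 4392 and 4441 normalised CPM (log2 2.00 ± 0.31, edgeR adjusted p = 0.00124). miR-429 was 1.13 ± 0.32 higher (adjusted p = 0.0163), but the call was lost without DLD1 MCS replicate 1 (adjusted p = 0.13), DLD1 MCS replicate 2 (0.0549) or HT29 MCS replicate 2 (0.0677). From the chromosome 12 cluster miR-200c-3p was lower in HT29, as given above, while its neighbour miR-141-3p was higher, at 3714 and 2833 against 834 and 771 (log2 2.03 ± 0.36, adjusted p = 0.00234). Of the 5 tested strands of the intestinal group, 3 were higher and 1, miR-194-3p, lower in HT29. Under library totals alone 2 were higher and 1 lower, and with RLE 4 were higher and 0 lower. The lower level of miR-194-3p (33.5 and 14.8 against 77.7 and 83.1) stood at an adjusted p of 0.0485. Its call was lost without either DLD1 2D library (adjusted p = 0.0676 and 0.0745), either DLD1 MCS library (0.113 and 0.134) or HT29 MCS replicate 2 (0.171), and the log2 difference of −1.74 was −2.41 without HT29 MCS replicate 1.

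Among families linked to growth, the miR-17-92 cluster and its paralogs, which act in proliferation, had 6 of 18 strands higher and 3 lower in HT29 MCS, with a median log2 difference of −0.59 beside −0.35 for all. With 1 library left out 4 to 6 were higher and 3 to 6 lower, and under library totals alone 3 and 4. miR-20a-5p was higher at 23608 and 18583 against 3489 and 3442 normalised CPM (log2 2.61 ± 0.45, edgeR adjusted p = 0.00204). miR-17-5p was also higher, at 6362 and 16539 against 1776 and 1615 (log2 2.76 ± 0.48, adjusted p = 0.00222, or 1.90 without HT29 MCS replicate 2), while miR-92a-3p of the same transcript was not called (adjusted p = 0.153). let-7 and miR-98, known to repress growth and stem cell transcripts, had 3 strands higher, 5 lower and 9 not called of 17, with 3 to 8 lower when 1 library was left out. let-7g-5p was lower in HT29 at 3178 and 2795 against 14062 and 19306 (log2 −2.48 ± 0.48, adjusted p = 0.00316). The miR-15 and miR-16 family with miR-424 and miR-503, whose members repress cyclins, had 1 strand higher and 5 lower of 9, or 0 and 3 under library totals alone. In it miR-15b-5p was lower at 157 and 406 against 1884 and 1575 (log2 −2.62 ± 0.52, adjusted p = 0.00377, or −3.47 without HT29 MCS replicate 2), but miR-16-5p was not called (adjusted p = 0.104). The miR-26 family had 3 of 4 strands lower, among them miR-26b-5p (log2 −2.05 ± 0.37, adjusted p = 0.00255), but miR-26a-2-3p lost its call without DLD1 MCS replicate 1 (adjusted p = 0.0597).

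Among families known from epithelial differentiation and matrix, the miR-30 family had 6 of 9 strands higher and 1 lower in HT29 MCS (77.8% called beside 60.3% of all, median log2 1.85), but 2 higher and 1 lower under library totals alone. miR-30e-5p, from an intron of NFYC, gave 15227 and 11482 against 3148 and 4450 normalised CPM (log2 1.81 ± 0.39, edgeR adjusted p = 0.00492), and miR-30b-5p was 1.85 ± 0.31 higher (adjusted p = 0.00165). The miR-181 family had 4 of 8 strands higher and 0 lower, but 1 to 4 higher with 1 library left out and 0 under library totals alone. Its strand miR-181a-3p lost its call without either DLD1 MCS library (adjusted p = 0.106 and 0.0841), and its most abundant strand, miR-181a-5p, was not called (log2 −0.06 ± 0.43, adjusted p = 0.92). The miR-29 family had 3 of 7 strands lower and 0 higher, or 1 lower under library totals alone. In the group of miR-23, miR-27 and miR-24 5 of 9 strands were lower and 1 was higher, or 3 and 0 under library totals alone. In it miR-23a-3p was lower at 1077 and 2064 against 6106 and 5763 (log2 −1.92 ± 0.38, adjusted p = 0.00372). That call was lost with TMM (log2 −1.51) or, like the others listed above, with library totals alone (log2 −2.13). The miR-148 and miR-152 family had 3 of 5 strands lower and 1 higher. Of the lower strands miR-152-3p lost its call without DLD1 2D replicate 1 or 2, DLD1 MCS replicate 1 or 2 or HT29 MCS replicate 2 (adjusted p = 0.0525, 0.0581, 0.0985, 0.0923 and 0.117). The miR-320 family, which is made without Drosha cleavage, had 4 of 4 strands lower, of which only 2 reached 10 CPM in both lines. In it miR-320a stood at 3266 and 2976 against 8364 and 9019 (log2 −1.48 ± 0.30, adjusted p = 0.00427). The call of miR-320b was lost without DLD1 2D replicate 1 or 2, DLD1 MCS replicate 1 or 2 or HT29 MCS replicate 2 (adjusted p = 0.0575, 0.0689, 0.0878, 0.123 and 0.091), and that of miR-320d without DLD1 MCS replicate 1 or 2 or HT29 MCS replicate 2 (0.0554, 0.0747 and 0.0622).

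Of 12 strands listed for colorectal cancer, 7 were higher and 1 was lower in HT29 MCS (66.7% called beside 60.3% of all), or 4 and 1 under library totals alone. miR-31-5p, raised in many colorectal tumours, was higher at 3842 and 6384 against 429 and 382 normalised CPM (log2 3.66 ± 0.40, edgeR adjusted p = 0.00025). miR-203a-3p, a brake on keratinocyte proliferation, was lower at 2313 and 1966 against 7590 and 10199 (log2 −2.06 ± 0.36, adjusted p = 0.0023). In the cluster of miR-183, miR-96 and miR-182 1 of 4 strands was higher and 1 lower, and miR-96-5p gave 2488 and 3041 against 236 and 206 (log2 3.64 ± 0.40, adjusted p = 0.00025). The lower one, miR-183-3p, lost its call without DLD1 MCS replicate 1 or 2 or HT29 MCS replicate 2 (adjusted p = 0.0632, 0.0747 and 0.0797), while miR-182-5p was called lower without HT29 MCS replicate 1 (adjusted p = 0.0255). The list of miR-99, miR-100 and miR-125 had 4 strands higher and 2 lower of 6, as described above, and 3 of the 6 reached 10 CPM in both lines. miR-9 (2 of 2 strands) and the cluster from miR-371 to miR-373 (2 of 2) were lower. Of these strands 0 reached 10 CPM in both lines, so they entered through DLD1 and their direction is no separate support. miR-10 and miR-196 had 2 of 6 lower, among them miR-10a-3p, the partner of the uncalled miR-10a-5p (494 and 565 against 3243 and 3674, log2 −2.71 ± 0.30, adjusted p = 0.000283). miR-221 and miR-222 had 2 of 4 strands higher, but 0 to 3 with 1 library left out and 0 under library totals alone. Of these miR-221-3p lost its call without DLD1 2D replicate 1 or 2, DLD1 MCS replicate 1 or 2 or HT29 MCS replicate 2 (adjusted p = 0.0766, 0.0729, 0.13, 0.151 and 0.11), and miR-222-5p without either DLD1 MCS library or HT29 MCS replicate 2 (0.0554, 0.0835 and 0.0622). The group of miR-130, miR-301 and miR-454 had 2 of 6 strands higher and 2 lower, but 0 higher and 1 lower under library totals alone, and miR-301a-3p lost its call without either DLD1 MCS library (adjusted p = 0.0558 and 0.0588). The hypoxia-induced miR-210 had neither strand called, with miR-210-3p at 746 and 1335 in HT29 and 733 and 511 in DLD1 (log2 0.74 ± 0.42, adjusted p = 0.162), although miR-210-5p was called lower without HT29 MCS replicate 1 (adjusted p = 0.0292). miR-34a-5p, a p53 target, was not called (adjusted p = 0.243). No strand of the imprinted chromosome 14 cluster (27 listed) or of the primate chromosome 19 cluster (44 listed) reached the level needed for the test.

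**Figure D3:**
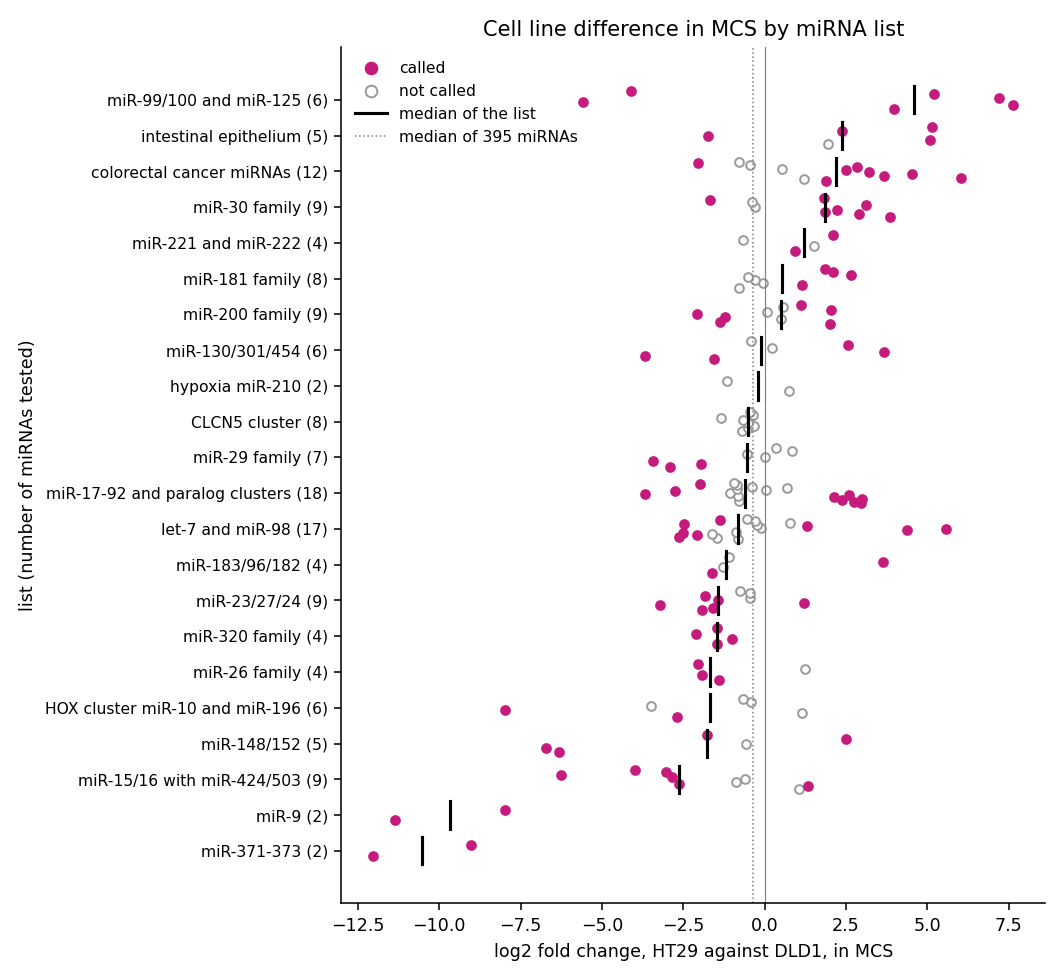
Log2 difference in MCS, HT29 over DLD1, of each tested strand of 22 miRNA lists. Filled points are called, black ticks are list medians and the dotted line is the median of all 395 miRNAs (−0.35). Points of miR-371b-3p, miR-372-3p and miR-9-3p rest on 0 or 1 count in HT29 MCS, so their place depends on the fit. The miR-30 list has a median of 1.85 and the list of miR-15 and miR-16 of −2.62.

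The labelled cell type was checked against markers of epithelium and of other cells. The summed epithelial markers gave 137729 and 169537 normalised CPM in the DLD1 MCS and 261924 and 225864 in the HT29 MCS. Markers of smooth muscle and stroma summed to at most 6.03 in any library, liver to at most 0.853 and neuron to at most 0.122. The blood markers miR-451a, miR-144-3p, miR-223-3p and miR-150-5p summed to at most 0.603 in DLD1 and to 9.25 to 67.4 in HT29, almost wholly miR-150-5p, while miR-223-3p was at 0 throughout. miR-142-5p and miR-142-3p, also known from blood cells, are not in that sum and were present in both lines. In MCS miR-142-5p gave 68.8 and 85.0 normalised CPM in DLD1 and 128 and 136 in HT29, and miR-142-3p 42.9 and 40.9 against 36.9 and 143. Neither was called over all libraries (edgeR adjusted p = 0.0755 and 0.221), but miR-142-5p was without HT29 2D replicate 1 (adjusted p = 0.0481). Endothelial markers, chiefly miR-126-3p in DLD1, lay between 64.2 and 110 in DLD1 and between 22.2 and 27.8 in HT29. miR-126-3p was 2.80 ± 0.47 lower in HT29 MCS on the log2 scale (edgeR adjusted p = 0.00182), whereas miR-126-5p of the same hairpin was not called (log2 −0.57). Of 25 markers of other cell types 6 were tested, and 2 were higher and 1 lower in HT29 MCS. The muscle miRNA miR-1-3p was 159 and 23.1 in HT29 MCS and 7.79 and 7.96 in DLD1, a call (log2 3.53, adjusted p = 0.0249) that was lost without HT29 MCS replicate 1 (log2 1.58, adjusted p = 0.182) or without DLD1 MCS replicate 1 or 2 (adjusted p = 0.122 for each).

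In 2D culture 240 of the same 395 miRNAs (60.8%) were called between the lines, 120 higher (30.4%) and 120 lower in HT29. Under library totals alone the 2D calls were 47 higher and 133 lower. Of the MCS and 2D calls 200 were shared, all with the same direction, 38 were made in MCS alone and 40 in 2D alone. Across the 395 miRNAs the differences in MCS and in 2D had a Pearson r of 0.929 (0.913 over the 248 miRNAs with 10 CPM in both lines). The comparisons share no library but they share the lines, media and kits, and miRNAs are not independent replicates. The median absolute log2 difference of the shared calls was 2.90 in MCS and 2.79 in 2D. For calls in MCS alone it was 1.86 in MCS and 0.54 in 2D, and for calls in 2D alone 0.72 and 1.44. A call in 1 culture is not by itself a changed difference, and the change was therefore tested directly.

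**Figure D4:**
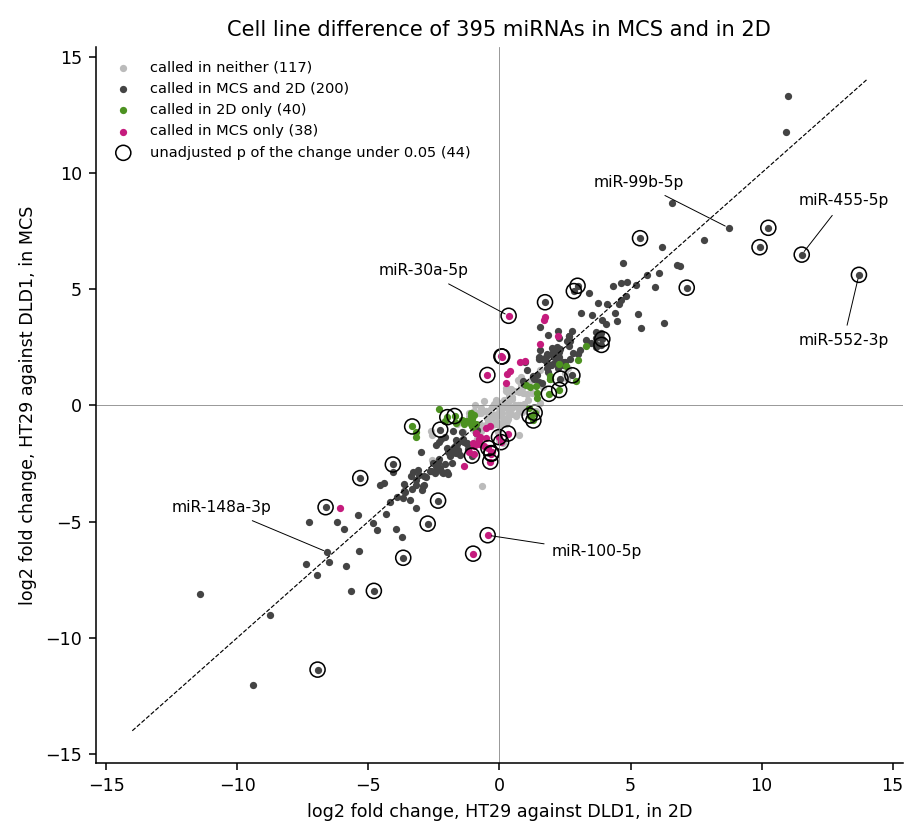
Log2 difference HT29 over DLD1 in MCS (vertical) and in 2D (horizontal) for 395 miRNAs, with a dashed line of equality. Colours mark calls in both cultures (200), in MCS alone (38), in 2D alone (40) or in neither (117), and rings mark the 44 with an unadjusted p under 0.05 for the change. Points of miRNAs with 0 to 3 counts in a line, such as miR-552-3p in 2D, depend on the fit for their place. miR-30a-5p and miR-100-5p lie near 0 on the 2D axis and far from 0 on the MCS axis.

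No miRNA passed the edgeR quasi-likelihood test of the change of the line difference at an adjusted p under 0.05 (0 of 395, 0%). The smallest adjusted p was 0.0532, for miR-552-3p, and 44 miRNAs (11.1%) had an unadjusted p under 0.05. With TMM, RLE or upper quartile factors over the tested miRNAs the same test called 2, miR-30a-5p and miR-552-3p. On the same counts DESeq2 called 16 and limma voom 2, and both sets held these miRNAs. By fitted values the difference was wider in MCS for 20 of the 44, narrower for 18 and of opposite sign for 6. It had moved towards DLD1 for 29 of the 44 and towards HT29 for 15, beside a move towards DLD1 for 248 of all 395. In 13 of the 38 miRNAs called in MCS alone and in 8 of the 40 called in 2D alone the change had an unadjusted p under 0.05. MCS and 2D libraries did not overlap for 40 of the 44 in DLD1, against 279 of all 395 (70.6%), and for 21 of the 44 in HT29, against 121 of all 395 (30.6%). Among the 44, both lines separated for 17, in opposite directions for 10, DLD1 alone for 23 and HT29 alone for 4. The separations and the p of the change use the same libraries, so the former are no separate support. The miRNAs below were named by this unadjusted p, and their p-values are unadjusted unless stated.

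The clearest difference that appeared in MCS was in miR-30a-5p, a strand known to repress SNAI1 and autophagy transcripts (MIR30A, chr6:72113254-72113324, minus strand, in an intron of LINC00472). In 2D it had 318 and 296 normalised CPM in DLD1 and 481 and 303 in HT29 (log2 0.35 ± 0.42, adjusted p = 0.502). In MCS it had 48.0 and 58.2 in DLD1 and 1026 and 508 in HT29 (log2 3.85 ± 0.47, adjusted p = 0.000429). The MCS libraries lay below 2D in DLD1 and above 2D in HT29. The change of 3.50 ± 0.61 had an edgeR p of 0.000535 and an adjusted p of 0.106, and without HT29 MCS replicate 2 it was 3.95 with an adjusted p of 0.0421. With TMM, RLE or upper quartile factors over the tested miRNAs the change of miR-30a-5p was called (edgeR adjusted p = 0.0294, 0.0406 and 0.025). The seed relative miR-30e-5p kept a like difference in both cultures, 1.81 ± 0.39 in MCS and 2.10 ± 0.39 in 2D.

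miR-100-5p also had a call in MCS alone, but with a less certain 2D value. DLD1 gave 553 and 518 normalised CPM in 2D and 550 and 611 in MCS, whereas the HT29 libraries had 709 and 77.1 (2D) and 18.9 and 5.57 (MCS). The log2 difference was −0.45 ± 0.91 in 2D (edgeR adjusted p = 0.685) and −5.59 ± 1.12 in MCS, and the edgeR p of the change of −5.14 ± 1.38 was 0.00633. Without HT29 2D replicate 1 the 2D difference was −2.80 and called (adjusted p = 0.0107), and without HT29 2D replicate 2 the change was −6.04 with an adjusted p of 0.0141. In MCS the difference was −6.67 without HT29 MCS replicate 1 and −4.95 without replicate 2. The difference was thus lower in MCS in each of these settings, but its absence from 2D rested on 1 library.

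Of the differences called in MCS alone, 25 were lower and 13 higher in HT29. Among them let-7b-5p and miR-203a-3p had higher DLD1 levels in MCS over near-equal levels in 2D. In DLD1, MCS lay above 2D for 185 of all 395 miRNAs and below for 94. let-7b-5p had 2847 and 3148 in DLD1 2D and 3187 and 1667 in HT29 2D (log2 −0.30 ± 0.38), against −2.09 ± 0.39 in MCS, where DLD1 reached 13149 and 12146 (edgeR p of the change 0.0117). miR-203a-3p had 2167 and 2199 in DLD1 2D and 2201 and 1324 in HT29 2D (log2 −0.31 ± 0.35), against −2.06 ± 0.36 in MCS (p of the change 0.00882). In both, the HT29 libraries of the 2 cultures overlapped while those of DLD1 did not. The change of miR-222-5p ran the other way. It was 36.2 and 30.0 in DLD1 2D, 8.05 and 6.40 in DLD1 MCS and 19.1 to 47.2 in HT29, with log2 differences of 0.08 ± 0.51 in 2D and 2.11 ± 0.53 in MCS (p of the change 0.0248). The MCS call of miR-222-5p was lost without DLD1 MCS replicate 1 (adjusted p = 0.0554), DLD1 MCS replicate 2 (0.0835) or HT29 MCS replicate 2 (log2 1.39, adjusted p = 0.0622).

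Differences called in both cultures were wider in MCS for several miRNAs. miR-95-3p gave 9.43 and 14.5 normalised CPM in DLD1 2D, 81.7 and 101 in DLD1 MCS and 1.68 to 3.12 in HT29 (log2 −2.74 ± 0.41 in 2D and −5.09 ± 0.44 in MCS, edgeR p of the change 0.00322). miR-125b-5p gave 66.6 and 64.3 in DLD1 2D, 84.0 and 77.4 in DLD1 MCS, 13.7 and 12.3 in HT29 2D and 4.90 and 4.53 in HT29 MCS (log2 −2.34 ± 0.31 and −4.10 ± 0.34, p of the change 0.00381). The MCS libraries of miR-125b-5p lay above 2D in DLD1 and below 2D in HT29. miR-215-5p was near 60 in all DLD1 libraries (59.7 to 64.9), while HT29 had 500 and 478 (2D) and 3120 and 1339 (MCS). Its log2 difference of 2.98 ± 0.44 in 2D thus compared with 5.14 ± 0.49 in MCS (p of the change 0.00674, MCS value 4.44 without HT29 MCS replicate 1). miR-192-5p with the same seed did not move likewise, since its level was higher in the MCS of both lines and its log2 difference was 5.95 ± 0.68 in 2D and 5.07 ± 0.65 in MCS (p of the change 0.294). For miR-192-5p the difference was 5.27 in 2D without HT29 2D replicate 1 and 4.24 in MCS without HT29 MCS replicate 1.

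The remaining wider differences in the named set were in less abundant strands. miR-9-5p gave 42.6 and 37.6 normalised CPM in DLD1 2D, 256 and 379 in DLD1 MCS and 0.641 to 2.88 in HT29 (edgeR p of the change 0.0106). Its log2 difference was −7.98 ± 0.81 in MCS and −4.79 ± 0.73 in 2D, the latter −5.96 without HT29 2D replicate 1 and −3.81 without replicate 2, and without replicate 2 the change had an adjusted p of 0.0244. miR-7974 gave 19.9 and 18.4 in DLD1 2D, 1.94 and 2.37 in DLD1 MCS, 105 and 169 in HT29 2D and 65.8 and 64.4 in HT29 MCS (log2 2.84 ± 0.37 in 2D and 4.91 ± 0.41 in MCS, p of the change 0.0036). Both lines had less of it in MCS, DLD1 by the larger factor. miR-4485-3p was 1.94 to 3.41 in all DLD1 libraries, 9.60 and 8.49 in HT29 2D and 59.7 and 54.0 in HT29 MCS (p of the change 0.00254). Its 2D call was lost without DLD1 2D replicate 1 (log2 1.35, adjusted p = 0.0839).

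Among the 18 narrower differences, the smallest p-values belonged to miR-552-3p and miR-455-5p, which had 0 and 1 count in the DLD1 2D libraries. miR-552-3p (MIR552, chr1:35135200-35135295, minus strand) had 0 counts in both DLD1 2D libraries and 1.85 and 3.51 normalised CPM in the DLD1 MCS, against 91.4 and 67.3 in HT29 2D and 149 and 114 in HT29 MCS. It was at least 1420-fold higher in HT29 in 2D, and its log2 difference was 5.61 ± 0.52 in MCS (edgeR p of the change 0.000135, adjusted p = 0.0532, or 0.0141 without HT29 2D replicate 2). miR-455-5p, from an intron of COL27A1 (MIR455, chr9:116971714-116971809, plus strand), had 1 count in DLD1 2D and 1.59 and 0.948 normalised CPM in DLD1 MCS, against 58.0 and 76.9 in HT29 2D and 102 and 127 in HT29 MCS. Its ratio in 2D was 4540 (95% counting interval 814 to 179000) and its log2 difference in MCS 6.48 ± 0.59 (p of the change 0.000861). In both, the MCS libraries lay above 2D in both lines. With TMM, RLE or upper quartile factors over the tested miRNAs the change of miR-552-3p was called (edgeR adjusted p = 0.0294, 0.0329 and 0.025).

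miR-205-5p, an epithelial miRNA that also represses ZEB1 and ZEB2, was narrower from both sides, with 0.474 and 0.800 normalised CPM in DLD1 2D, 1.51 and 1.56 in DLD1 MCS, 635 and 959 in HT29 2D and 207 and 406 in HT29 MCS (edgeR log2 10.26 ± 0.65 in 2D and 7.64 ± 0.59 in MCS, p of the change 0.00444). miR-874-3p followed the same course at 2.28 and 1.92, 6.46 and 3.27, 368 and 227, and 157 and 169 normalised CPM in the same order of groups (p of the change 0.00973). In neither miRNA did the lines come near each other in level.

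Differences called in 2D that were no longer called in MCS included miR-101-3p, which represses EZH2. It gave 1280 and 989 normalised CPM in DLD1 2D and 5019 and 6003 in HT29 2D (log2 2.28 ± 0.33, edgeR adjusted p = 0.000925). In MCS it gave 3170 and 2821 in DLD1 and 4072 and 5405 in HT29 (log2 0.66 ± 0.31, adjusted p = 0.103, p of the change 0.00736). HT29 thus stayed above DLD1 without overlap in both cultures, by less in MCS. miR-5100 gave 43.1 and 55.4 in DLD1 2D and 5.28 and 4.61 in HT29 2D, and 11.9 and 11.1 in DLD1 MCS and 7.67 and 4.77 in HT29 MCS (log2 −3.33 ± 0.40 in 2D and −0.91 ± 0.37 in MCS, p of the change 0.0022). In MCS miR-5100 became called without HT29 MCS replicate 1 (log2 −1.24, adjusted p = 0.0342). miR-200b-3p gave 22051 and 24850 in DLD1 2D and 80606 and 92696 in HT29 2D (log2 1.89 ± 0.37, adjusted p = 0.0038), against 0.50 ± 0.36 in MCS (p of the change 0.0278). Its 2D call was lost without DLD1 2D replicate 1 (log2 1.76, adjusted p = 0.0574).

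The CLCN5 cluster lies on the X chromosome and encodes miR-532, miR-362, miR-500a and miR-660 among others. None of its 8 tested strands was called in MCS (median log2 −0.51), against 60.3% of all. In 2D 5 were lower in HT29 (median −1.43), beside 30.4% of all lower and 60.8% of all called in 2D. With 1 library left out, 0 to 1 were lower in MCS and 4 to 8 in 2D. Of the 8, 2 had an unadjusted p under 0.05 for the change, beside 11.1% of all. miR-362-5p and miR-500a-3p were also called lower in 2D without HT29 2D replicate 1 (log2 −2.09 and −2.85, edgeR adjusted p = 0.00294 and 0.02). miR-660-5p gave 126 and 121 normalised CPM in DLD1 2D and 33.8 and 41.4 in HT29 2D (log2 −1.71 ± 0.32, edgeR adjusted p = 0.00317), and 85.4 and 89.9 in DLD1 MCS and 54.0 and 73.3 in HT29 MCS (log2 −0.46 ± 0.32, p of the change 0.0246). miR-532-5p was −2.08 ± 0.50 in 2D (adjusted p = 0.00881) and −0.69 ± 0.48 in MCS, but without HT29 MCS replicate 1 its MCS difference was −1.44 and called (adjusted p = 0.0285).

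The 6 miRNAs whose fitted difference changed sign had small differences in at least 1 culture. miR-23b-3p and miR-27b-3p are neighbours in an intron of AOPEP (chr9:97847490-97847586 and chr9:97847727-97847823, plus strand). miR-23b-3p gave 710 and 756 normalised CPM in DLD1 2D, 2981 and 2637 in DLD1 MCS, 739 and 794 in HT29 2D and 792 and 1082 in HT29 MCS (edgeR log2 0.06 ± 0.29 in 2D and −1.58 ± 0.30 in MCS, p of the change 0.00481). miR-27b-3p gave 3077 and 3084, 9762 and 11024, 7042 and 6647, and 8828 and 6495 in the same order, with log2 differences of 1.15 ± 0.31 in 2D and −0.44 ± 0.30 in MCS (p of the change 0.00678). For both, the DLD1 MCS libraries lay above those of DLD1 2D while the HT29 cultures overlapped. The MCS call of miR-23b-3p was lost with TMM (log2 −1.21) or library totals alone (log2 −1.88). The 2D call of miR-27b-3p was lost without DLD1 2D replicate 1 (adjusted p = 0.103) or 2 (adjusted p = 0.112).

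The other 4 were miR-664a-3p, miR-203b-5p, miR-378a-5p and miR-200b-5p. The 2D call of miR-664a-3p (log2 1.30 ± 0.39, edgeR adjusted p = 0.0227) was lost without DLD1 2D replicate 1 or 2, DLD1 MCS replicate 2 or HT29 2D replicate 1 (adjusted p = 0.128, 0.0902, 0.0505 and 0.11). The MCS call of miR-200b-5p (log2 −1.21 ± 0.39, adjusted p = 0.0266) was lost without each of the 5 libraries named for it above (adjusted p up to 0.123). miR-203b-5p gave 123 and 111 normalised CPM in DLD1 2D, 396 and 510 in DLD1 MCS and 276 to 435 in HT29, with an edgeR log2 difference of 1.34 ± 0.34 in 2D that was lost without DLD1 2D replicate 1 (adjusted p = 0.0729) or 2 (adjusted p = 0.0992). miR-378a-5p was the 1 of the 6 that moved towards HT29, with 27.8 and 21.9 in DLD1 2D, 17.6 and 11.8 in DLD1 MCS, 18.5 and 17.7 in HT29 2D and 41.5 and 31.2 in HT29 MCS (log2 −0.46 ± 0.36 in 2D and 1.31 ± 0.36 in MCS, p of the change 0.00895). Its MCS call was lost without DLD1 MCS replicate 2 (log2 1.04, adjusted p = 0.116). None of the 6 was called in both cultures.

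**Figure D5:**
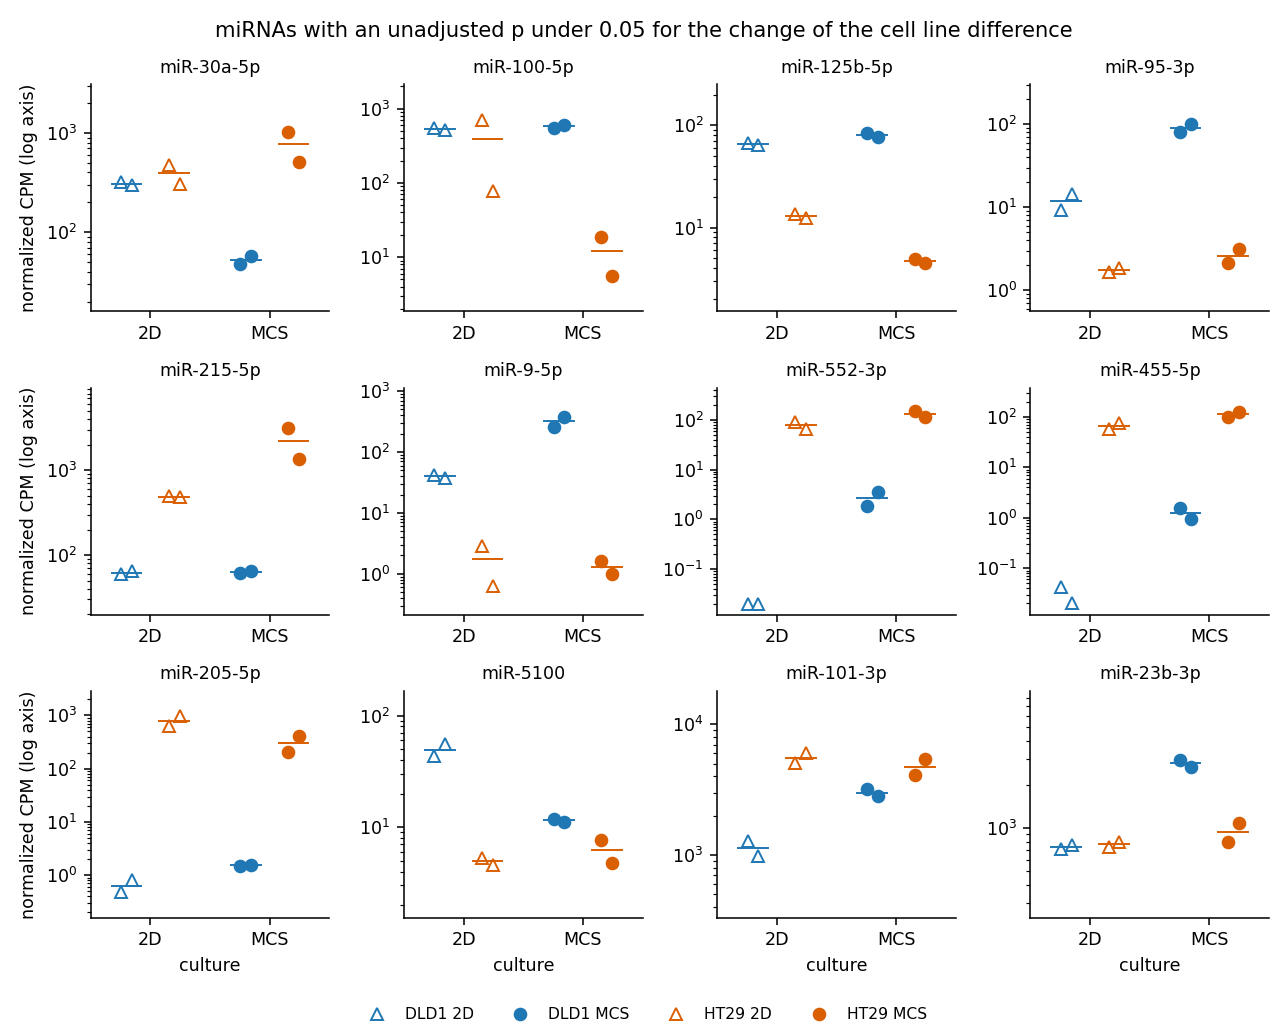
Normalised CPM on a log axis in all 8 libraries for 12 miRNAs with an unadjusted p under 0.05 for the change of the line difference. Points are libraries and bars are group means. Libraries with 0 counts are drawn at the bottom, without a mean bar, for both DLD1 2D libraries of miR-552-3p and 1 of miR-455-5p. The MCS libraries of miR-30a-5p lie below 2D in DLD1 and above 2D in HT29.

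Strands from 1 hairpin did not always share their difference. Of 63 hairpins with both arms tested in MCS, 38 had arms of the same sign, and of 19 with both arms called 13 had the same direction and 6 opposite directions. MIR15B had log2 differences of −2.62 for the 5p arm and 1.32 for the 3p arm, MIR27A −1.44 and 1.20, and MIR30E 1.81 and −1.67. MIR1307 (2.98 and −0.89), MIR200A (−1.37 and 2.00) and MIR330 (1.04 and −1.17) were the other 3. The calls of miR-15b-3p and miR-27a-3p were each lost without a DLD1 MCS library (edgeR adjusted p = 0.0767 and 0.0597 without replicate 1, 0.0588 and 0.0516 without replicate 2), and miR-15b-5p became −3.47 without HT29 MCS replicate 2. Of 19 groups of hairpins within 10000 bases of each other, 3 had every tested strand called in 1 direction, among them the SPACA6 block, and 6 held calls in both directions. In composition the mature strands differed little between the directions, with a median GC content of 46.5% for those higher in HT29 MCS, 50.0% for those lower and 47.8% for all. A last base of U was found in 22.4% of the higher strands, 33.3% of the lower and 31.0% of all.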

How the data were processed

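The 8 libraries were analysed from a matrix of raw counts per mature miRNA deposited by the authors. Per the labels' processing notes, the authors called bases with CASAVA 1.8.3, trimmed adapters and the kit's random bases with cutadapt 1.11, dropped short or low-quality reads and aligned with Bowtie2 2.1.0 to hg19 and then to mature miRNAs of miRBase. The study's methods name other versions of cutadapt and Bowtie2. The kit version differed between the lines. The per-sample tables and the matrix were compared over 12512 values, of which 0 differed. In HT29 2D replicate 2, 15 entries naming no miRNA (0.00988% of counts) were left out.

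Counts were fitted with edgeR 4.0.16 in R 4.3.3 (quasi-likelihood, a mean for each of 4 groups, upper quartile factors over all miRNAs with a count) for miRNAs averaging 10 CPM or more in the MCS of either line. Contrasts were HT29 minus DLD1 in MCS, in 2D, and the change between them. A call needed a Benjamini-Hochberg adjusted p under 0.05 over the 395 miRNAs and a fold change of at least 1.5. Standard errors (SE) came from the fold change and its F statistic. For a single value an exact permutation test of 2 against 2 cannot go below p = 0.333 and was not used. Ratios of miRNAs with 0 to 3 counts in a line used exact counting intervals or a floor of 3 counts.

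Named miRNAs were the 8 most abundant in MCS, the 8 highest and 8 lowest differences among those called with 10 CPM in both lines, 5 each way of those in 1 line, up to 6 per class of change by unadjusted p, and up to 4 per family list. Some others are named in counts, sums or arms and were chosen after their values were seen. The members, lists and tests were chosen with earlier results of these data known. The script was tested on simulated data. Alternatives used DESeq2 1.42.0, limma 3.58.1, other scalings, filters, replicate blocks and left-out libraries. Hairpin positions came from the GENCODE annotation of GRCh37 and mature sequences from RefSeq.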

Additional observations from a re-analysis of the deposited data

Results flagged for a closer look

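A signal lay outside the main measurement. In HT29 2D replicate 2 alone, 15 entries of the count table that name no miRNA held 2590 counts, 0.00988% of that library, and the other 7 libraries held 0 there. The entries were not used in any comparison.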

How the results depend on the processing

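Of the 117 named miRNAs, 76 were called in MCS, 60 of them without each library in turn, and 76 in 2D, 55 of them without each library. The number called in MCS (238) was 388 with no filter on low counts and 95 with 10 CPM required in each MCS library, and 175 to 257 with 1 library left out. In 2D (240) it was 409, 101 and 160 to 257 in the same order. The change of the line difference (0 called) gave 2 with TMM, RLE, upper quartile factors over tested miRNAs or limma voom, 21 with no filter, 16 with DESeq2, 44 at an unadjusted p, and 0 to 4 with 1 library left out (4 without HT29 2D replicate 2, 1 without HT29 MCS replicate 2). With no filter, more miRNAs were tested. Under upper quartile factors over tested miRNAs 39.8% of 2D calls were higher in HT29, against 50% in the fit reported, and under library totals alone 26.1%. Without both HT29 libraries of replicate 1, an alternative chosen after seeing the data in which the lone HT29 library is assumed to vary like the other groups, the change gave 39 calls, and without both of replicate 2 it gave 60. There the difference turned in miR-10a-5p in MCS (−1.59) and in let-7a-5p (−1.66), let-7f-5p (−1.03) and miR-183-5p (−1.91) in 2D, all without replicate 1. With libraries of either replicate left out these differences ranged from −1.60 to 2.02, −1.68 to 0.81, −1.06 to 1.55 and −1.94 to 1.68, in that order. let-7a-5p in 2D also turned with library totals alone (−1.47). The cause was not tested.

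Replicate numbers are shared between groups but nothing says that they pair the samples. Deviations of same-numbered libraries correlated with r = 0.750 between the HT29 cultures, 0.219 between the DLD1 cultures and −0.129 between the lines in MCS. A replicate block over both lines gave 244, 240 and 0 calls in MCS, 2D and the change, and a replicate block within each line 310, 300 and 42. A block over both lines with the DLD1 numbers crossed, added after seeing the data, gave 255, 258 and 3.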

Other observations

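Strands of the relatives of miR-99b and miR-125a that did not reach 10 CPM in MCS were also counted. miR-100-3p had 34 and 74 counts in DLD1 2D, 17 and 41 in DLD1 MCS and 0 in each of the 4 HT29 libraries. miR-125b-1-3p, from the chromosome 11 copy of miR-125b, had 61, 138, 14 and 17 counts in the DLD1 libraries in the same order and 0 in each HT29 library. miR-125b-2-3p, from the chromosome 21 copy, had 0 counts in both DLD1 2D libraries and 5 and 1 in the DLD1 MCS, but 26 and 104 in HT29 2D and 16 and 25 in HT29 MCS. The line in which a passenger strand was counted thus differed between the copies of miR-125b. miR-99a-5p, the neighbour of the chromosome 21 copy, had 10 to 83 counts in the DLD1 libraries and 15 to 58 in those of HT29. These are raw counts with no test.

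Over the 395 miRNAs, 17 had MCS libraries that lay wholly above 2D in 1 line and wholly below 2D in the other, and in 8 of them it was HT29 whose MCS libraries lay above. In 10 of the 17 the change of the line difference had an unadjusted p under 0.05 in the edgeR fit, beside 44 of all 395 (11.1%). Both counts use the same libraries, so the overlap is no separate support. In DLD1, MCS lay above 2D for 185 of the 395 miRNAs and below for 94.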
